A study of Populus tremula with 16 samples.

Results

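Sucrose leaves a leaf through transporters and is broken down inside it by enzymes such as sucrose synthase, and 5 genes of these groups were followed here through autumn in aspen leaves. They are the sucrose synthases SUS1 (Potri.018G063500), SUS2 (Potri.006G136700) and SUS3 (Potri.002G202300) and the sucrose transporters SUT3 (Potri.019G085800) and SUT4 (Potri.002G106900), 5 of the 41335 gene IDs of the deposited tables. They were taken as a named list of poplar genes, not by their values, and the tables themselves hold IDs without gene names. Leaves of Populus tremula, or European aspen, came from 16 dates between 27 July and 1 October 2011, with 1 RNA sequencing library per date. No ID had more counts on 19 September than on 18 September. The library of 19 September was left out by the rule that named these genes, and 15 libraries remained. The calendar divided them into 4 early libraries (July and August), 6 middle libraries (2 to 15 September) and 5 late libraries (18 September to 1 October). The labels give the tissue and the date only. Not given in the sources used here are the tree or trees, the site, the hour of collection and any pooling of leaves. Dates therefore stood in for replicates, so the p-values measure the scatter of single dates. They treat neighbouring dates as independent, which was not tested, and would be too small where such dates are alike.

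Sucrose synthase splits sucrose with UDP into fructose and UDP-glucose, the sugar donor for cellulose and callose, and it is known for its high activity in organs that import sugar and in developing wood. Sucrose transporters of plants move sucrose together with protons across membranes. In poplar, SUT4 is a transporter of the vacuolar membrane that releases stored sucrose, and SUT3 is a plasma membrane transporter studied mainly in wood-forming tissue. Sugar and nitrogen compounds are withdrawn from a leaf in autumn before it is shed.

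Library totals ranged from 5148979 to 6729131 counts in the early period, from 719419 to 5954322 in the middle period and from 756966 to 4344936 in the late period. Levels are given in the units of the deposited normalised table, in which each count is divided by 1 factor per library. These values are not per gene length, so they compare dates for a gene and not genes with each other. Where no read was counted, up to 3 counts could be hidden, a level of 0.617 to 3.69 depending on the library. In whole leaves, fewer cells of a type and less RNA per cell cannot be told apart.

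From summer to the late leaves SUS3, SUT3 and SUT4 rose and SUS2 fell. SUS3 was higher in every late library, SUT4 was highest on the last 2 dates, and SUT3 had few counts until it appeared in the last libraries. SUS1 was barely detected. Its 43 counts over 15 libraries did not pass the filter on low counts, which needed a level equal to 10 counts at the median library total in at least 4 libraries and was met in 3. The other 4 genes passed, SUT3 with 4 libraries, all of them late, so its test is not independent of that filter. Between the early and late periods 58.2% of the 15583 tested IDs passed the threshold (adjusted p of 0.05), with 29.3% higher and 28.9% lower in late leaves, and a call on its own is therefore common in these leaves.

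**Figure D1:**
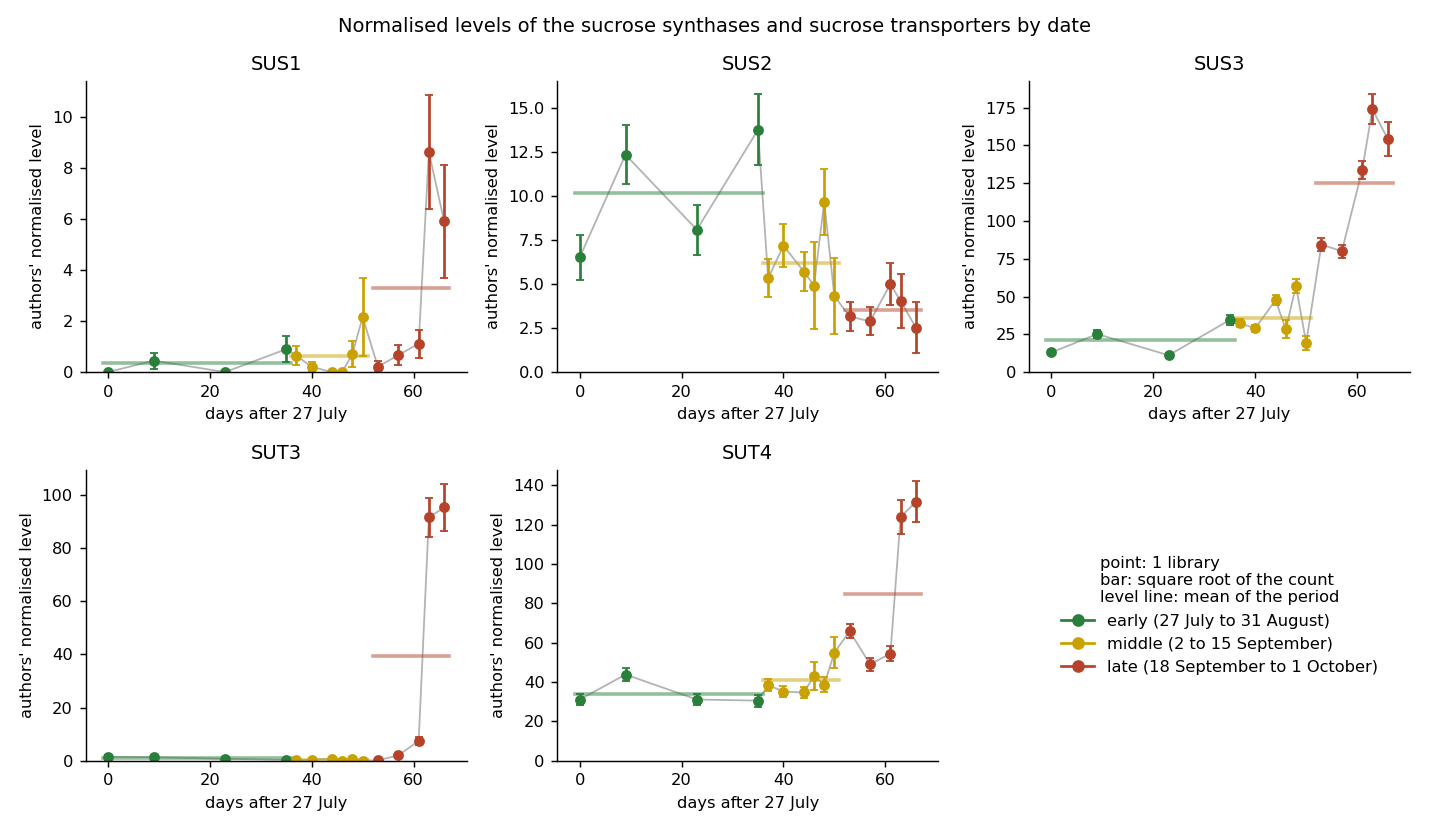
Authors' normalised level of each gene (vertical axis, linear, not per gene length) against days after 27 July, with 1 point per library, bars of the square root of the count and a line at the mean of each period. SUT3 is at or below 7.51 until day 61 and above 91 on the last 2 dates, while SUS3 climbs over the 5 late libraries from 84.4 and 80.0 to 173.9 and 154.4.

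SUS3 rose late in the series. In the early leaves its level was 13.0 on 27 July, 25.2 on 5 August, 11.1 on 19 August and 34.5 on 31 August. In the middle period it was 32.3, 29.0, 47.7, 28.3, 57.0 and 19.4 on 2, 5, 9, 11, 13 and 15 September. The late leaves had 84.4, 80.0, 133.8, 173.9 and 154.4 on 18, 22, 26 and 28 September and 1 October. Every late library stood above every earlier library, whereas the early and middle ranges overlapped. The share of all tested IDs with such separate ranges was not counted, here or for SUS2 and SUT4 below. The mean level (± SD) was 21.0 ± 10.9 in the 4 early libraries, 35.6 ± 14.0 in the 6 middle ones and 125.3 ± 41.8 in the 5 late ones. From the early to the late period SUS3 rose by 2.58 log2 units (SE 0.41, adjusted p = 6.68e-05, edgeR's quasi-likelihood test). Of all tested IDs, 8.85% had a change further upward. The part from the middle to the late period was a rise of 1.798 log2 units (SE 0.34, edgeR adjusted p = 0.000651), in a comparison where 47.7% of the IDs were called. From the early to the middle period the change was 0.78 (SE 0.37), which did not pass (edgeR adjusted p = 0.268) in a comparison where 4.55% of the IDs were called. Without 28 September and 1 October, the last 2 dates, SUS3 was still called, with an early to late change of 2.21 (SE 0.36, edgeR adjusted p = 5.58e-05).

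SUS3 also varied from date to date within a period by more than counting allows. Its early counts, 52, 112, 44 and 115, scattered 21.4 times as widely (in variance) as Poisson counts about 1 common level, and its highest early level was 3.09 times its lowest. From 15 to 18 September, from 18 counts in a shallow library to 400 counts in a deep one, the level was 4.35 times as high (95% exact interval 2.72 to 7.42, counting error only). The level on 15 September was also 0.340 times that of 13 September (0.197 to 0.555), so the step up on 18 September starts from the lowest September value. The library of 15 September held 836643 counts.

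SUS2 went the other way. Early levels were 6.52, 12.4, 8.10 and 13.8 on 27 July and 5, 19 and 31 August. Levels in the middle period were 5.34, 7.20, 5.72, 4.92, 9.68 and 4.31, in date order. The late levels were 3.17, 2.88, 5.01, 4.03 and 2.53. All late libraries were below all early ones, and the middle libraries overlapped with both. Over these 4, 6 and 5 libraries the mean level (± SD) was 10.2 ± 3.44, 6.19 ± 1.96 and 3.52 ± 0.998. From the early to the late period SUS2 fell by 1.51 log2 units (SE 0.29, edgeR adjusted p = 0.000331), and 17.9% of the tested IDs had a change further downward. From the middle to the late period it fell by 0.85 (SE 0.28, edgeR adjusted p = 0.0203). The early to middle change of -0.66 (SE 0.26) did not pass (edgeR adjusted p = 0.176).

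Few counts lie behind SUS2, 159 early, 122 in the middle period and 56 late. By summed counts the early level was 2.85 times the late one (95% exact interval 2.09 to 3.93, counting error only). The middle to late call of SUS2 ended without 13 September (edgeR adjusted p = 0.055), without 22 September (0.0529) and with period limits 1 date later (0.143). With library totals alone as the scaling, the early to late change of SUS2 was -0.61 and the call ended (edgeR adjusted p = 0.0904).

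Within summer SUS2 and SUS3 shared an order, lower on 27 July and 19 August and higher on 5 and 31 August. SUS2 was 1.90 times as high on 5 August as on 27 July (exact interval 1.17 to 3.15) and SUS3 1.93 times (1.38 to 2.74). Between 5 and 19 August SUS2 went to 0.655 times (0.410 to 1.03, which includes 1) and SUS3 to 0.442 times (0.305 to 0.632). On 31 August, against 19 August, SUS2 was 1.70 times as high (1.06 to 2.76) and SUS3 3.09 times (2.17 to 4.49). SUT4 shared the steps of 5 August (1.41, 1.12 to 1.78) and 19 August (0.710, 0.562 to 0.894), not that of 31 August (0.982, 0.748 to 1.29). On 2 September the steps of SUS2 and SUS3 differed. SUS2 stood at 0.387 times its level of 31 August (0.228 to 0.644), and SUS3 counts of 115 and 151 gave levels of 34.5 and 32.3. Both SUS2 and SUS3 had their highest middle level on 13 September (9.68 and 57.0) and their lowest on 15 September (4.31 and 19.4). These intervals cover counting error only and compare libraries, not conditions.

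SUS1 had 5 counts in the 4 early libraries, 8 in the 6 middle libraries and 30 in the 5 late ones. Its levels were 0, 0.450, 0 and 0.899 early, and between 0 and 2.15 in the middle period. The late libraries had 0.211, 0.665 and 1.11 on 18, 22 and 26 September, 8.64 on 28 September from 15 counts and 5.91 on 1 October from 7 counts. The last 2 dates were the only libraries of the 15 above 2.2. Tested with no filter on low counts, SUS1 rose from early to late by 2.80 log2 units (SE 0.98, edgeR adjusted p = 0.0259 over 30299 IDs). In that fit 11253 of the 30299 IDs were called, and 31.9% of the IDs had a smaller p than SUS1. The middle to late change of SUS1, 2.32 (SE 0.88), did not pass (edgeR adjusted p = 0.0545). The early to late call ended without 28 September (adjusted p = 0.141), without 27 July (0.0774), without 19 August (0.0747) and without the last 2 dates together (0.44), all by edgeR. By summed counts the late level was 5.98 times the early one (95% exact interval 2.30 to 19.8), and 1.96 times (0.565 to 7.61) without 28 September and 1 October.

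SUT3 had few counts before late September. It had 6, 6, 3 and 1 counts in the early libraries, for levels of 1.505, 1.35, 0.759 and 0.300. In the middle period its levels were 0.214, 0.411, 0.847, 0, 0.717 and 0, from 9 counts in all. The late levels were 0.211, 1.99 and 7.51 on 18, 22 and 26 September, and 91.6 and 95.3 on 28 September and 1 October. The library of 18 September was among the lowest of the series, so early and late ranges overlapped, and the libraries from 22 September on stood above all others. Its mean level (± SD) was 0.978 ± 0.555 over the 4 early libraries, 0.365 ± 0.360 over the 6 middle ones and 39.3 ± 49.5 over the 5 late ones.

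From early to late SUT3 rose by 5.18 log2 units (SE 1.23, edgeR adjusted p = 0.00172), and 2.28% of the tested IDs had a change further upward. From the middle to the late period it rose by 6.22 (SE 1.22, edgeR adjusted p = 0.000746), with 0.43% of the IDs further upward. The early to middle change of -1.04 (SE 1.63) did not pass (edgeR adjusted p = 0.801). With limma-voom the late calls of SUT3 ended, with 2.31 log2 units from early to late (adjusted p = 0.27) and 3.11 from the middle to the late period (adjusted p = 0.166). SUT3 passed the filter through late libraries only, so the filtered p-values and ranks are not independent of it. Tested with no filter, the early to late change of SUT3 was 4.99 (SE 1.01, edgeR adjusted p = 0.000356), with 1.98% of the IDs further upward. The middle to late change was then 5.98 (SE 1.00, edgeR adjusted p = 0.000106), with 0.446% further upward. With no filter and without 28 September and 1 October the early to late change was 1.60 (SE 0.62, edgeR adjusted p = 0.0377).

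The rise of SUT3 was stepwise over the last dates. Its level on 26 September was 3.77 times that of 22 September (95% exact interval 1.72 to 9.10), and on 28 September it was 12.2 times that of 26 September (8.07 to 19.1). From 28 September to 1 October, 159 and 113 counts gave levels of 91.6 and 95.3. The step of 28 September fell where the library total dropped, from 3271054 counts on 26 September. An effect of depth on this step was not tested. The libraries of 28 September and 1 October held 1162665 and 756966 counts in all, and those of 11 and 15 September, with totals of 719419 and 836643, had 0 SUT3 counts, which allows levels of up to 3.69 and 3.23. By summed counts the late level was 19.3 times the early one (exact interval 11.7 to 34.1), and 2.83 times (1.54 to 5.45) without the last 2 dates.

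SUT4, the vacuolar transporter, was present on every date. Early levels were 31.1, 43.8, 31.1 and 30.6, and middle levels were 38.4, 35.2, 34.7, 43.0, 38.7 and 54.9. The late levels were 65.9, 49.0, 54.5, 123.8 and 131.6. Every late library lay above the early range, as did 15 September, while 15 September also lay above 22 and 26 September. The mean level (± SD) of SUT4 was 34.2 ± 6.46 (4 early libraries), 40.8 ± 7.53 (6 middle libraries) and 85.0 ± 39.6 (5 late libraries).

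From early to late SUT4 rose by 1.31 log2 units (SE 0.33, edgeR adjusted p = 0.0026), and 20.1% of the tested IDs had a change further upward. From the middle to the late period it rose by 1.06 (SE 0.29, edgeR adjusted p = 0.00674), and from early to middle the change was 0.25 (SE 0.31, edgeR adjusted p = 0.738). The step of 28 September was 2.27 times the level of 26 September (95% exact interval 1.86 to 2.77). Without 28 September and 1 October the early to late change of SUT4 was 0.69 (SE 0.21, edgeR adjusted p = 0.0109), and the middle to late call ended with a change of 0.45 (SE 0.20, adjusted p = 0.0821).

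**Figure D2:**
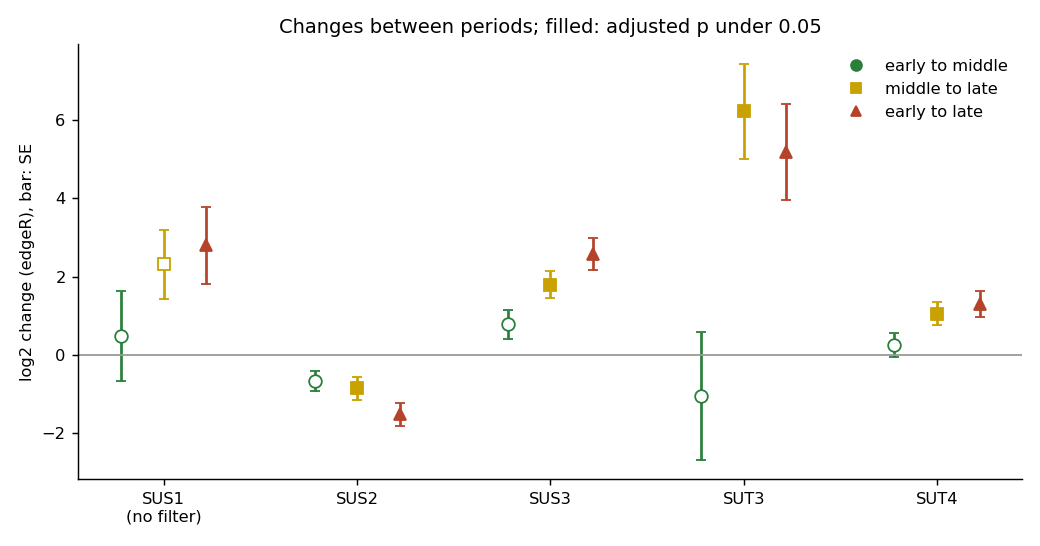
Log2 change of each gene between periods by edgeR (vertical axis), with the SE as bars, filled symbols for an adjusted p under 0.05 and SUS1 from the fit with no filter on low counts. The early to middle symbols are open for all 5 genes, with changes from -1.04 to 0.78, and SUS2 is the gene with late changes below 0.

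Tested against the date itself, with a smooth curve of the day in place of periods, each of the genes that passed the filter changed, in a test where 62.9% of the IDs did. The adjusted p-values of this test are for the whole curve against a flat line. The first to last day differences given with them have no SE and no test of their own. The curves went from the first to the last day by 3.56 log2 units for SUS3 (edgeR adjusted p = 3.09e-06), 6.88 for SUT3 (1.05e-09), 1.75 for SUT4 (8.32e-05) and -1.21 for SUS2 (0.0109). SUS1, with no filter, had 5.81 (edgeR adjusted p = 0.000466), with a range of 4.39 (without 27 July) to 9.39 (without 5 August) when each library was left out, and without the last 2 dates 2.95 (adjusted p = 0.472). SUT3 had 6.63 with no filter (edgeR adjusted p = 9.60e-13) and, without the last 2 dates, 2.05 (adjusted p = 0.000168). Without these dates SUT4 was no longer called in this test, with 0.55 (adjusted p = 0.0798), while SUS3 (2.93, adjusted p = 0.00033) and SUS2 (-1.10, adjusted p = 0.0483) were.

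The dates from which every later library stayed outside the range of the early leaves differed among the genes. SUS2 was below that range from 15 September on, in 6 libraries, and SUT4 was above it from the same date. SUS3 followed on 18 September with 5 libraries, SUT3 on 22 September with 4 and SUS1 on 26 September with 3. These dates are a description with no test. Some libraries were outside the early range before these dates. In all, 9 libraries were below it for SUS2, among them 2, 9 and 11 September. For SUS3 7 were above it, among them 9 and 13 September, and for SUS1 4 were, among them 15 September. The library of 15 September is shallow, with 4 counts of SUS2, 51 of SUT4 and 18 of SUS3. The order of SUS2, SUT4 and SUS3 therefore rests on that library.

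The mixture of sucrose synthase counts shifted toward SUS3. This measure is a share of counts within a library and does not depend on the scaling between libraries. SUS3 made up 65.2 ± 5.19% (SD) of the counts of the 3 synthases in the 4 early libraries, 83.0 ± 4.98% in the 6 middle ones and 95.1 ± 1.17% in the 5 late ones. The share of SUS2 went from 34.0 ± 5.88% early through 15.0 ± 3.01% in the middle period to 2.87 ± 0.95% late, over the same libraries. For both shares no library of a period reached into the range of another period. The share of SUS2 fell from early to middle (exact permutation p = 0.00952, adjusted 0.0357), from middle to late (exact permutation p = 0.00433, adjusted 0.0325) and from early to late (exact permutation p = 0.0159, adjusted 0.0397), two-sided and adjusted over 15 tests. The p-values for the rise of the SUS3 share were the same, and all are the smallest that groups of these sizes allow. SUS1 holds little of the synthase counts, so the SUS2 and SUS3 shares nearly mirror each other and are not separate results. Both enter the 15 tests, which lowers the adjusted p-values. An adjustment with either share left out was not run. The early to late call of each share was lost in 11 of 19 alternatives, among them each early or late library left out, and the early to middle call in 7 (SUS2) and 6 (SUS3) of 19. Leaving out a library of a compared period also raises the smallest p that these tests can give. The middle to late call was lost in 2 (SUS2) and 3 (SUS3) of 19, and no alternative turned a direction of these 2 shares. Groups that are runs of neighbouring dates give small p-values under any steady drift.

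The change in this mixture was already present at the start of September. SUS2 made up 28.0% of the synthase counts on 31 August (95% Wilson interval 21.7 to 35.4%) and 14.0% on 2 September (9.64 to 19.8%). It was 16.7% on 15 September (6.68 to 35.9%, from 24 synthase counts) and 3.61% on 18 September (2.20 to 5.86%, from 416). SUS1 held 0 to 1.83% of the synthase counts early, and its share did not differ between periods beyond the spread (early to late, exact permutation p = 0.349, adjusted 0.476). On 28 September SUS1 held 4.63% (2.83 to 7.50%) and SUS2 2.16% (1.05 to 4.39%).

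**Figure D3:**
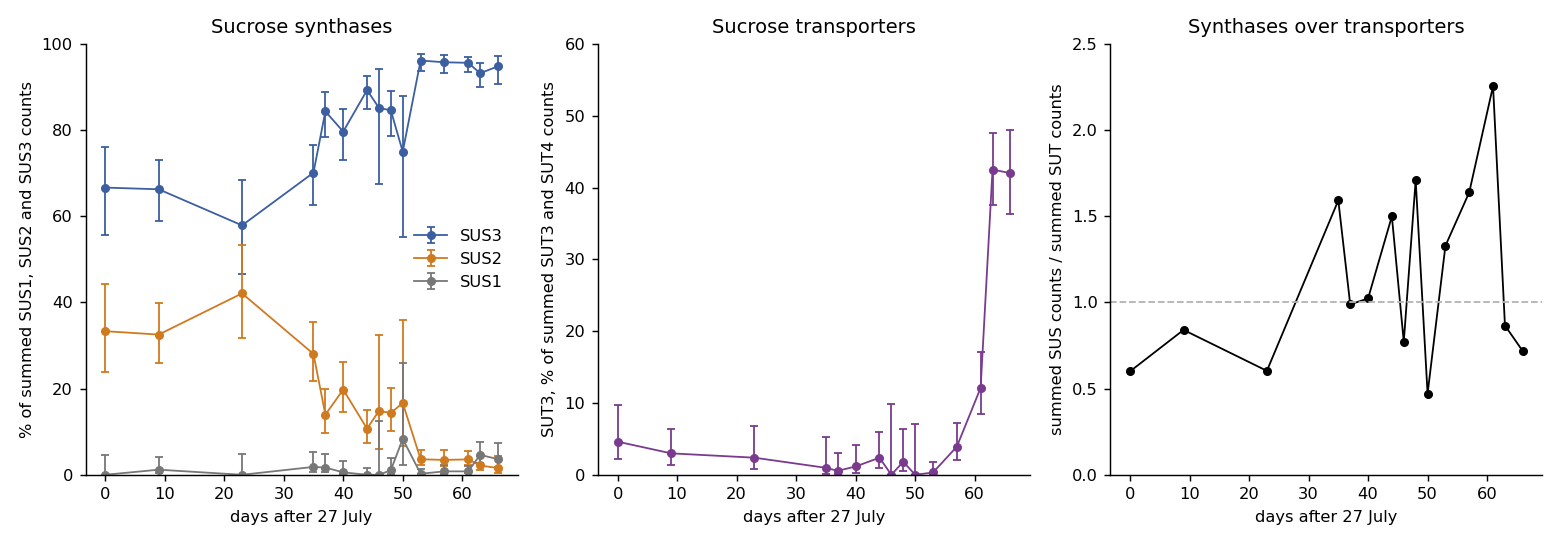
Shares of counts within the synthases (left, %) and of SUT3 within the transporters (middle, %), with 95% Wilson intervals, and the ratio of synthase to transporter counts (right), against days after 27 July. SUS3 reaches 93.2% or more in every late library, SUT3 reaches 42.5% and 42.0% on the last 2 dates, and the ratio is highest, at 2.26, on 26 September.

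Among the transporters, SUT3 joined SUT4 at the end. SUT3 made up 4.62, 2.99, 2.38 and 0.971% of the counts of both transporters on the early dates and 0 to 2.38% in the middle period. In the late leaves it held 0.319% on 18 September, 3.91% on 22 September and 12.1% on 26 September (95% Wilson interval 8.46 to 17.04%). The shares of 28 September and 1 October were 42.5% (37.6 to 47.6%) and 42.0% (36.3 to 48.0%). The middle to late difference, 0.985 ± 0.98% (SD, n = 6) against 20.2 ± 20.6% (SD, n = 5), passed narrowly (exact permutation p = 0.0216, adjusted 0.0464). That adjustment also counts both of the mirrored SUS2 and SUS3 shares. It did not pass in 17 of 19 alternatives, such as all 16 libraries (adjusted p = 0.13). The early to late difference did not pass (exact permutation p = 0.159, adjusted 0.265), with 18 September in the late group.

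Synthase counts and transporter counts kept no fixed ratio. The summed synthase counts were 0.60, 0.841, 0.603 and 1.59 times the summed transporter counts on the early dates. They were between 0.471 and 1.71 times in the middle period. Late values were 1.33, 1.64 and 2.26 on 18, 22 and 26 September and then 0.866 and 0.717 on 28 September and 1 October. Periods did not differ beyond their spread on the log2 scale, with means (± SD) of -0.26 ± 0.66 over 4 early libraries, -0.01 ± 0.67 over 6 middle ones and 0.32 ± 0.67 over 5 late ones. The early to late comparison gave an exact permutation p of 0.206 (adjusted 0.31).

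The size of a change depended on how libraries were scaled. The early to late changes above use the trimmed mean of M values (TMM). With library totals alone the median change of all tested IDs was 0.92 log2 units, against 0.01 with TMM. After subtraction of that median, the early to late change under TMM and under library totals was -1.52 and -1.53 for SUS2, 2.57 and 2.69 for SUS3, 5.17 and 5.44 for SUT3, and 1.30 and 1.44 for SUT4. The signs of these 4 genes were the same under each of the scalings tried, and the call of SUS2 ended with library totals.

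**Figure D4:**
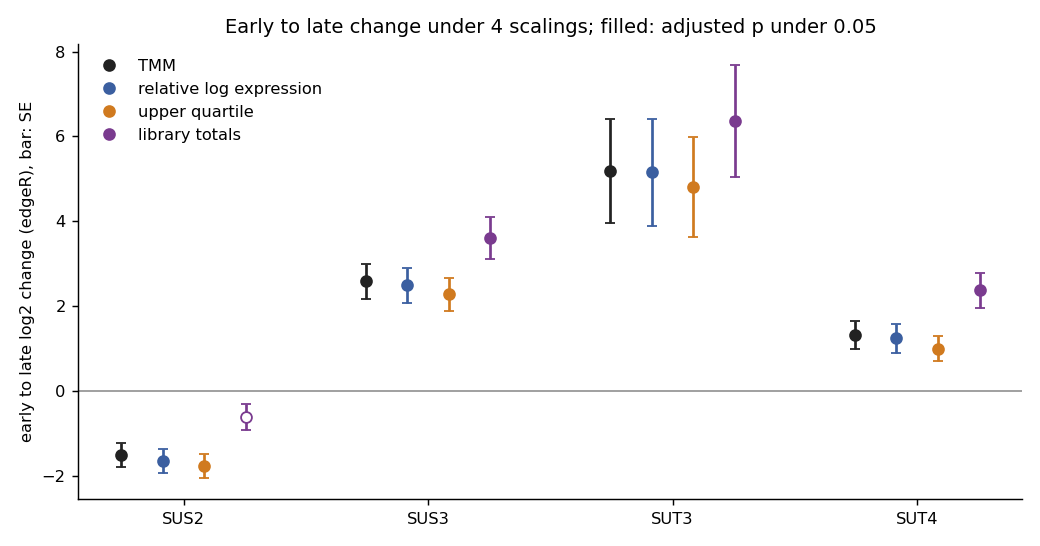
Early to late log2 change (vertical axis) of the genes that passed the filter under 4 scalings between libraries, with the SE as bars and filled symbols for an edgeR adjusted p under 0.05. SUS2 moves from -1.51 with TMM to -0.61 with library totals, where its symbol is open, and the other genes stay above 0.

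The genes' courses were compared with each other and with all other tested IDs by Pearson's r of log2 CPM (counts scaled to a common library size) over the 15 libraries, as a description in which libraries and their scaling are shared. SUT3 and SUT4 had r = 0.81, and 0.04 over the 13 libraries without 28 September and 1 October. SUS1 and SUT4 had 0.85, and 0.42 without these dates. SUS3 and SUT4 had 0.76 and 0.55. SUS2 and SUT4 went against each other with -0.68 in both sets. SUS2 and SUS3 had -0.57, and -0.43 without the last 2 dates.

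The IDs of most similar course were Potri.017G052400 (r = 0.98) and Potri.003G186500 (0.98) for SUS3, Potri.006G109200 (0.98) and Potri.002G259300 (0.98) for SUT3, and Potri.004G021500 (0.98) and Potri.011G157000 (0.97) for SUT4. For SUS2 they were Potri.016G053700 (r = 0.92) and Potri.002G179500 (0.90), and for SUS1 Potri.014G130700 (0.96) and Potri.007G029400 (0.94), where the sparse counts of SUS1 make the order uncertain. Of the 15579 other IDs, 3.68% had r above 0.9 with SUT4, 3.29% with SUT3, 2.23% with SUS3 and 0.1605% with SUS1, against 0.0128% with SUS2. A similar course did not mean a similar size. Potri.002G259300 differed by 2.29 log2 units between early and late leaves and Potri.006G109200 by 1.67, against 5.18 for SUT3.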

How the data were processed

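Raw counts of reads for 41335 gene IDs and a normalised table of signal values for 19769 of them were deposited by the authors. The submitters' processing notes name CASAVA (1.8.2), FastQC (1.0), Trimmomatic (1.0), STAR (2.4) and HTSeq. Not given in the sources used here are the genome build, the strand setting and how reads matching several IDs were counted. Values of related family members are therefore uncertain to that extent. Multiplied by 1 factor per library, 99.98% of the deposited normalised signal values gave the raw count within 0.01. All 16 single library tables equalled the raw table.

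IDs passing filterByExpr (minimum count 10, minimum total 15) were scaled by TMM. The periods were fitted together by edgeR (4.0.16, in R 4.3.3) with its quasi-likelihood test, and the time course as a natural spline of the date with 3 degrees of freedom. Benjamini-Hochberg adjustment ran over all tested IDs, and calls were made at 0.05. Alternatives used DESeq2 1.42.0 and limma 3.58.1. An SE is the change divided by the root of F. CPM on the log2 scale had a prior count of 2. Shares were compared by two-sided exact permutation tests. Intervals treat each read as an independent draw and cover counting error only, not the scatter between dates. They would be too narrow where reads are not independent molecules.

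The genes, periods and tests were chosen with earlier results of these data known. The named IDs are the 5 genes and, for each, the 2 tested IDs with the highest Pearson's r. Planned lists of other sugar genes and of cell type markers needed gene names for the IDs and were not used here, so the leaf label was not checked against markers.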

Additional observations from a re-analysis of the deposited data

Results flagged for a closer look

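Values of the 5 genes and of the shares were examined in 30 groups of 4 to 6 libraries of a period, and in 3 groups a library lay farther from its neighbour than Dixon's 95% limit. About 1 in 20 groups would show this by chance, and more where counts are close to 0. SUT4 was at 43.8 on 5 August, where the nearest early library had 31.1. SUS1 was at 2.15 on 15 September from 2 counts, where the nearest middle library had 0.717. SUS1 also held 8.33% of the synthase counts on 15 September, 2 of 24, where the nearest middle library had 1.68%.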

How the results depend on the processing

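No paired analysis was possible because each date has 1 library and the labels give no replicate numbers. SUS3 kept its direction and its early to late, middle to late and time course calls in all 26 alternatives of each, and the early to late call of SUT4 held in 26 of 26. With library totals alone SUS2 had -0.61 early to late, -0.58 middle to late (adjusted p = 0.119) and -0.24 in the time course (0.528), and SUS3 passed from early to middle with 1.46 (0.0269). With limma-voom SUT3 had 2.31 and 3.11 log2 units. SUT3 did not pass the filter with all 16 libraries, without the last 2 dates, without 2, 5 or 9 September, or without any single late library. No call with the filter could be made for SUT3 in these alternatives. Without 28 September and 1 October SUT4 had 0.45 middle to late and 0.55 in the time course, and SUS1 0.94 early to late and 2.95 in the time course. Period limits 1 date later gave SUS2 -0.70 middle to late, and, for SUS1, limits 1 date earlier with the filter, which it then passed, gave 2.47 middle to late (0.0368). With no filter, where the middle to late change of 2.32 was not called, SUS1 had 2.37 (0.0333) with limits earlier and 3.06 (0.0111) with limits later, and its uncalled early to middle change turned to -0.15 with limits later. Leaving out each library in turn gave SUS2 -1.01 to -0.70 from middle to late, and SUS1 1.94 to 3.67 early to late and 1.44 to 2.71 middle to late. The 709 IDs called from early to middle became 3797 with library totals, 1213 with DESeq2, 2245 without the last 2 dates, 105 and 100 with limits later and earlier, and 163 to 1030 with each library left out. The causes were not tested.

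Where shares of counts lost a call, the size of the change is given in percentage points. Smaller groups raise the smallest p that an exact permutation test can give. Each early library left out gave the SUS2 share the same early to late adjusted p by this test, 0.0765. Beyond that, the cause of a lost call was not tested. With limits earlier the SUS2 share changed by -30.8 early to late, -19.05 early to middle and -11.8 middle to late, and the SUS3 share by 28.1, 18.6 and 9.56. Without the last 2 dates these were -30.5, -18.96 and -11.5 for SUS2 and 30.6, 17.8 and 12.8 for SUS3. Limits later gave -16.7 for SUS2 early to middle and 9.88 for SUS3 middle to late. With each library left out, the SUS2 share changed by -33.1 to -28.4 early to late and -20.9 to -16.3 early to middle, and the SUS3 share by 27.4 to 31.5 and 15.3 to 19.4. The SUT3 share changed by 15.8 from middle to late with all 16 libraries, 15.7 with limits earlier, 4.46 without the last 2 dates and 13.6 to 24.2 with each library left out. The SUS1 share, not called, turned to -0.14 early to late and -1.33 middle to late without the last 2 dates and to -0.26 middle to late with all 16 libraries. With each library left out it ran from -0.092 to 1.57 early to middle and from -0.58 to 1.36 middle to late. The log2 ratio of synthases to transporters, also not called, turned to -0.19 middle to late with limits earlier.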

Other observations

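The library of 19 September entered only the alternatives with all 16 libraries. It had 0 counts of SUS1, 3 of SUS2, 99 of SUS3, 0 of SUT3 and 68 of SUT4 in a total of 1034872. Its levels were 2.37 for SUS2, 78.3 for SUS3 and 53.8 for SUT4, against 3.17, 84.4 and 65.9 on 18 September. SUS3 made up 97.1% of its synthase counts (95% Wilson interval 91.7 to 99.0%).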
